A study of Canis lupus familiaris with 6 samples.

Results

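The enzymes that make cholesterol and fatty acids, with the regulators that set their transcription, were followed in 2 canine melanoma cell lines, CMM2 and CMM12, from which podoplanin had been removed. The set was fixed by gene symbol and holds 39 genes, 23 of the sterol branch and 16 of the fatty acid branch, out of 30951 gene rows in all. A row with the symbol was found for 37 of the 39 genes. IDI1 and EBP, which act on isopentenyl diphosphate and on zymosterol, were not matched by symbol and are not analysed here. MSMO1 had more than 1 row, and the row with the highest mean count was used. All 37 matched genes passed a filter on low counts, which left 12270 rows in all.

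Podoplanin is a mucin-type membrane glycoprotein of lymphatic endothelium, podocytes and several tumours. The 6 samples were 2 podoplanin KO lines of CMM12 (KO 1 and KO 2), 1 CMM12 control labelled wild type, 2 podoplanin KO lines of CMM2 and 1 CMM2 control, likewise labelled wild type. Total RNA was sequenced from 1 library of each. The labels do not say whether a KO line is 1 clone, nor which guide made it. The KO 1 and KO 2 libraries of a line are therefore 2 separately labelled KO lines. The p-values below measure only the spread between the libraries sequenced. Because each line has 1 control, the spread for KO against control within a line, and for the difference, came from the KO pairs. Each control was assumed to vary like them. For CMM12 against CMM2 and for KO across lines, the model had a single KO term. There the spread also took in any difference of the KO effects between the lines.

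Cells make cholesterol from acetyl-CoA through mevalonate, farnesyl diphosphate, squalene and lanosterol. They make fatty acids from the same acetyl-CoA through malonyl-CoA and palmitate, which elongases and desaturases then extend and modify. Both branches are transcribed under the SREBP factors, made from SREBF2 (mainly sterol genes) and SREBF1 (mainly fatty acid genes). SCAP carries the SREBP precursors to the Golgi for cleavage when membrane sterols are low, and the INSIG proteins hold SCAP back in the endoplasmic reticulum when sterols are high. INSIG1 is itself an SREBP target, so its mRNA is widely read as a gauge of SREBP activity.

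The deleted gene was checked first. PDPN had 15.2 and 9.98 CPM (a read count set to a common library size) in the CMM12 KO libraries, against 87.7 CPM in the CMM12 control, and 5.59 and 5.58 CPM in the CMM2 KO libraries, against 20.2 CPM in the CMM2 control. Total counts ranged from 9732925 to 11807824 a library. Of 8659 genes with a mean of at least 10 CPM, 4.47% differed by 2-fold or more from the control in either CMM12 KO library. In CMM2 the same share was 0.889% for KO 1 and 6.39% for KO 2, so CMM2 KO 2 stands apart within its line, and CMM2 values are given below for each KO library. Levels of the melanocyte markers are given in TPM (the authors' transcript abundance, a level per length). MITF had 10.7 and 15.2 TPM in the CMM12 KO libraries, against 21.7 TPM in the control. In CMM2, MITF had 16.2 and 19.0 TPM in the KO libraries, against 14.3 TPM in the control. Most of the lipid genes below had the same sides, and the part of MITF in the results was not tested. DCT was at 0 in all 6 libraries, and SOX10, MLANA and TYR did not pass 0.2 TPM in any. TYRP1 had 2.09 to 3.45 TPM in the CMM12 libraries and was at 0 in CMM2. S100B did not pass 0.21 TPM, PMEL 1.82 TPM and S100A1 5.61 TPM in any library. Of 5 leukocyte markers, PTPRC and CD3E were at 0 throughout, and CD68 and CSF1R did not pass 3.41 TPM. The CD79A row stood at 3150 to 3818 TPM in the CMM12 libraries and 3497 to 4542 TPM in the CMM2 libraries. Whether the reads of that row come from CD79A itself was not checked. The 8 fibroblast or mesenchymal markers summed to 951 and 1674 TPM in the CMM12 KO libraries, against 2299 TPM in the CMM12 control, and to 787 and 2779 TPM in the CMM2 KO libraries, against 343 TPM in the CMM2 control. That sum was lower than its control in both CMM12 KO libraries and higher in both CMM2 KO libraries, as most of the lipid genes below were, and its part in the results was not tested. Of the 8 markers, 4 were below the control in both CMM12 KO libraries and 6 above it in both CMM2 KO libraries. The collagens COL1A1, COL1A2 and COL3A1, and LUM, were in both counts. In CMM12, PDGFRA, PDGFRB and THY1 went the other way, above the control in both KO libraries. THY1 had 131 and 313 TPM there, against 115 TPM in the control. PDGFRB was counted as above in CMM2 with 0.57 TPM in KO 1, against 0.56 TPM in the control. THY1 was at 0 in all 3 CMM2 libraries and DCN at or near 0 there. In bulk RNA, fewer cells of a type and less RNA per cell cannot be told apart. Proliferation markers summed to 916 and 905 TPM in the CMM12 KO libraries, against 818 TPM in the CMM12 control. In CMM2 they summed to 808 and 778 TPM in the KO libraries, against 862 TPM in the control. That sum had the reverse sides of most lipid genes, and its part in the results was not tested. Not every marker followed it: MCM2 was below the control in both CMM12 KO libraries, and MKI67 above it in both CMM2 KO libraries.

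Many of the lipid synthesis genes lay on opposite sides of their control in the 2 lines, a direction already known when the set was drawn up. In CMM12, 25 of the 37 genes were lower in both KO libraries than in the control, where 34.2% of all tested genes were, and 4 were higher in both, where 35.6% of all tested genes were. In CMM2, 22 of the 37 were higher in both KO libraries, against 30.1% of all tested genes, and 4 were lower in both, against 30.9%. Both patterns at once, above the control in both CMM2 KO libraries and below it in both CMM12 KO libraries, were seen for 18 of the 37 genes, 9 of 21 in the sterol branch and 9 of 16 in the fatty acid branch, while 10.2% of all tested genes had it. The reverse pattern was seen for 2 genes, PMVK and FADS1, while 11% of all tested genes had it.

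No lipid synthesis gene passed the correction over all genes in edgeR when KO was set against control. With edgeR's quasi-likelihood test and Benjamini-Hochberg adjustment over all 12270 genes, 0 of the 37 were called at an adjusted p under 0.05 for KO against control in CMM12, where 0.00815% of all genes were called, and 0 of 37 for CMM2, for the difference between the lines' KO effects and for KO against control across both lines, where 0% of all genes were called in each. At an unadjusted p under 0.05 the test passed 8 of the 37 in CMM12 (background 5.99%), 7 of them lower and 1 higher in KO. It passed 2 of 37 in CMM2 (background 1.9%), both higher in KO, 8 of 37 for the difference (background 3.84%), all lower in CMM12, and 0 of 37 across lines (background 4.03%). DESeq2 with the same groups called 2 of the 37 in CMM12 (background 0.367%), INSIG1 and SCD, both lower in KO. It called 1 of 37 for the difference (background 0.179%), SCD, and 0 of 37 in CMM2 (background 0.0489%) or across lines (background 0.0733%). limma on log2(TPM + 1) called 0 of the 37 in each of these 4 comparisons.

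The median log2 fold change of KO over control was -0.33 for the sterol branch and -0.46 for the fatty acid branch in CMM12, beside 0.02 for all tested genes. In CMM2 it was 0.36 for the sterol branch and 0.28 for the fatty acid branch, beside 0.00 for all tested genes. The median difference of the KO effects, CMM12 minus CMM2, was -0.82 for the sterol branch and -0.74 for the fatty acid branch, beside -0.01 for all genes. The 2 branches thus gave medians of like size, and neither was tested against the other. Library by library, the sterol median was -0.38 in CMM12 KO 1, -0.34 in CMM12 KO 2, 0.06 in CMM2 KO 1 and 0.63 for the second CMM2 KO line. The fatty acid median was -0.54 in CMM12 KO 1, -0.38 in CMM12 KO 2, 0.16 in CMM2 KO 1 and 0.39 for the second CMM2 KO line. The sterol median of CMM2 was larger in KO 2 than in KO 1. In KO 1 alone 13 of 21 sterol genes and 12 of 16 fatty acid genes were above the control, whereas in KO 2 alone 16 of 21 and 14 of 16 were.

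**Figure D1:**
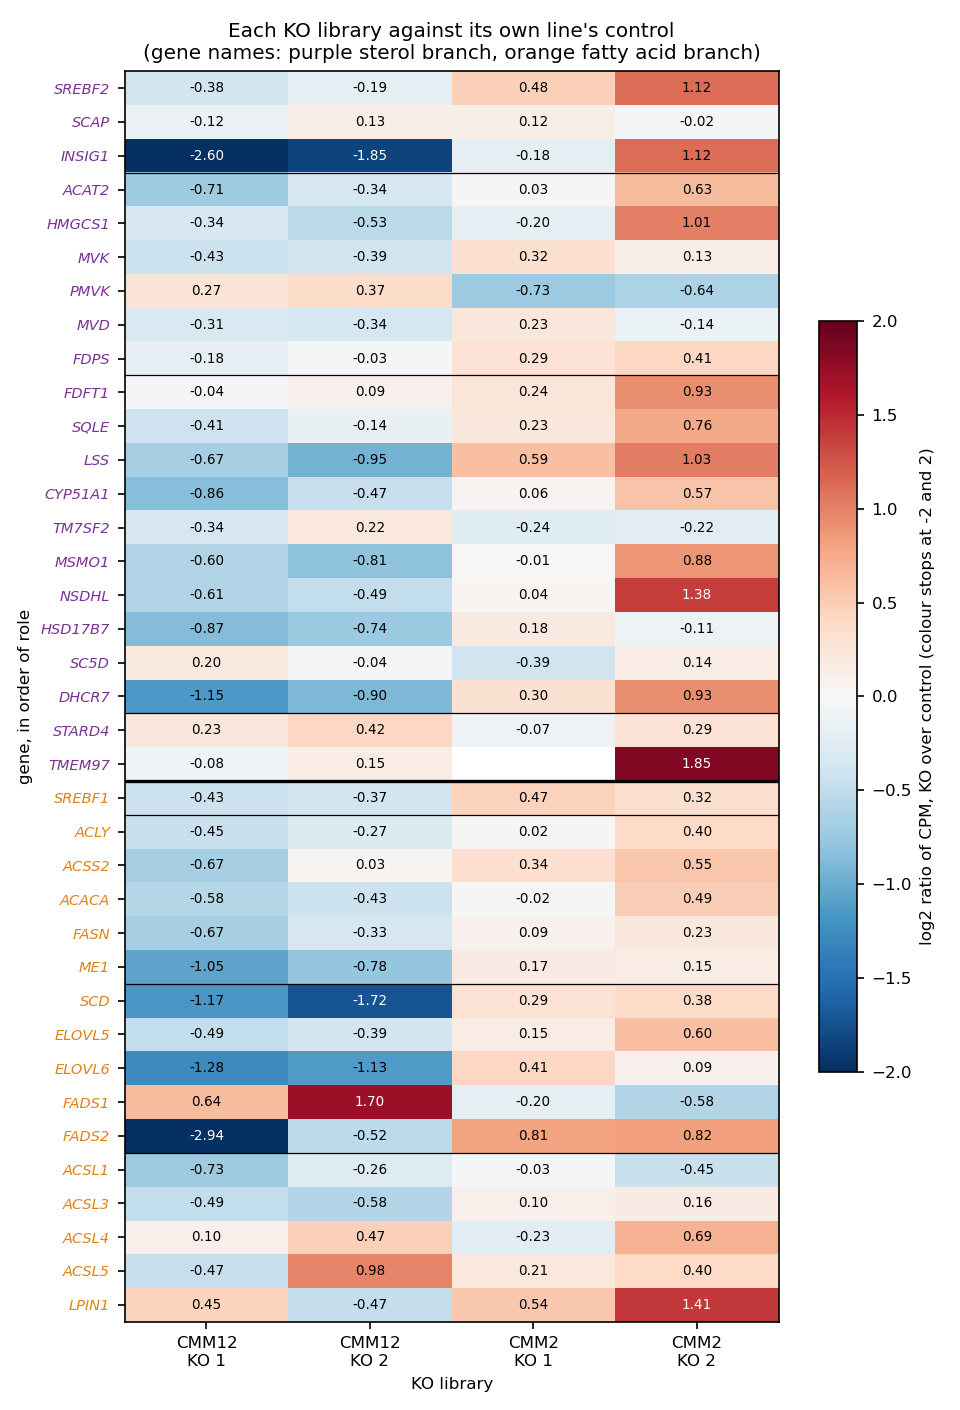
Log2 ratio of CPM between each KO library (columns) and the control of its own line, for the 37 matched genes (rows, in order of role), with the ratio printed in each cell and colour stopping at -2 and 2; the blank cell is TMEM97 in CMM2 KO 1, which had 1 count. The CMM12 columns are mostly blue (31 genes below 0 in KO 1 and 27 in KO 2) and the CMM2 columns mostly red (25 genes above 0 in KO 1 and 30 in KO 2), with PMVK and FADS1 the other way round.

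Among the genes that set SREBP processing, INSIG1 had the largest fold of the whole set in CMM12. INSIG1, the endoplasmic reticulum protein that retains SCAP, had 23.4 and 39.3 CPM in the CMM12 KO libraries, against 142 CPM in the CMM12 control. In CMM2 it had 95.3 and 234 CPM in the KO libraries, against 108 CPM in the control. Both CMM12 KO libraries were far below their control, while the CMM2 control lay between its 2 KO libraries. The log2 fold change, given here and below with its standard error (SE) after the sign ±, was -2.18 ± 0.53 in CMM12, with an adjusted p of 0.697 in edgeR and of 0.0177 in DESeq2, and 0.61 ± 0.56 in CMM2, where it was -0.18 without KO 2. The difference between the lines was -2.79 ± 0.79, with an unadjusted p of 0.0109 and an adjusted p of 1 in edgeR.

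SREBF2, which encodes the main factor for sterol genes, had 48.3 and 54.9 CPM in the CMM12 KO libraries, against 62.8 CPM in the CMM12 control. In CMM2 it had 152 and 236 CPM in the KO libraries, against 109 CPM in the control. All 3 CMM12 libraries were below all 3 CMM2 libraries, and within each line the control lay outside the range of the KO pair. The log2 fold change did not exceed its SE in CMM12 and was 0.83 ± 0.33 in CMM2, with an unadjusted p of 0.0414 and an adjusted p of 1 in edgeR. SCAP, the escort protein, had 81.0 and 96.5 CPM in the CMM12 KO libraries, against 88.1 CPM in their control, and 100.5 and 90.7 CPM in the CMM2 KO libraries, against 92.2 CPM in their control. For SCAP each control lay inside the range of its KO pair, and no fold exceeded its SE.

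The mevalonate enzymes showed smaller and less even differences. ACAT2, the cytosolic thiolase that joins 2 acetyl-CoA, had 48.0 and 61.9 CPM in the CMM12 KO libraries, against 78.5 CPM in the control, and 49.9 and 75.9 CPM in the CMM2 KO libraries, against 49.0 CPM in the control. Its CMM12 KO libraries were below the control and its CMM2 KO 2 library above it, with CMM2 KO 1 close to the control. MVK, the kinase of mevalonate, had 27.4 and 28.3 CPM in the CMM12 KO libraries, against 37.1 CPM in the control, and 61.0 and 53.5 CPM in the CMM2 KO libraries, against 49.0 CPM in the control. The KO pairs of MVK did not overlap their controls in either line, lower in CMM12 and higher in CMM2. PMVK, the next kinase, had 5.83 and 6.26 CPM in the CMM12 KO libraries, against 4.83 CPM in the control, and 5.07 and 5.39 CPM in the CMM2 KO libraries, against 8.4 CPM in the control. PMVK thus had the reverse order of MVK, with a log2 fold change of -0.68 ± 0.46 in CMM2 and an adjusted p of 1 in edgeR.

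FDPS, which makes farnesyl diphosphate, had 61.1 and 67.7 CPM in the CMM12 KO libraries, against 69.0 CPM in the control. In CMM2 it had 139.8 and 152 CPM in the KO libraries, against 114 CPM in the control. FDPS separated the lines more than it separated KO from control: every CMM12 library was below every CMM2 library. HMGCS1, a synthase upstream of mevalonate, was highest in the CMM2 KO 2 library, with 35.2 and 81.6 CPM in the CMM2 KO libraries, against 40.5 CPM in the control. Its log2 fold change in CMM2 was 0.53 ± 0.50 with both KO libraries and -0.20 without KO 2. MVD, the decarboxylase that makes isopentenyl diphosphate, had 92.1 and 89.9 CPM in the CMM12 KO libraries, against 114 CPM in the control, and 94.9 and 73.3 CPM in the CMM2 KO libraries, against 80.8 CPM in the control.

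From squalene to cholesterol, 7 of the 10 matched enzymes were below the control in both CMM12 KO libraries, 6 were above it in both CMM2 KO libraries, and 5 did both. LSS, the cyclase that closes squalene epoxide into lanosterol, had 41.8 and 34.3 CPM in the CMM12 KO libraries, against 66.4 CPM in the control, and 111 and 149.8 CPM in the CMM2 KO libraries, against 73.6 CPM in the control. The KO pair lay wholly below its control in CMM12 and wholly above it in CMM2, while the 2 controls were close to each other. LSS had the smallest unadjusted p of the sterol branch for the difference, with a log2 value of -1.63 ± 0.41, an unadjusted p of 0.00595 and an adjusted p of 1 in edgeR. DHCR7, the reductase of the last step of one route to cholesterol, had 36.2 and 43.0 CPM in the CMM12 KO libraries, against 80.4 CPM in the control, and 67.7 and 105 CPM in the CMM2 KO libraries, against 54.9 CPM in the control. Its KO pairs likewise lay on opposite sides, with log2 fold changes of -1.02 ± 0.32 in CMM12 and 0.65 ± 0.34 in CMM2 and edgeR adjusted p of 0.772 and 1.

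FDFT1, squalene synthase, the first enzyme committed to sterols, had 52.5 and 57.4 CPM in the CMM12 KO libraries, against 54.1 CPM in the control, and 82.0 and 132 CPM in the CMM2 KO libraries, against 69.5 CPM in the control. SQLE, the squalene epoxidase, chosen after its values were seen, had 82.0 and 98.7 CPM in the CMM12 KO libraries, against 109 CPM in the control, and 114 and 165 CPM in the CMM2 KO libraries, against 97.5 CPM in the control. For both genes the CMM2 KO pair lay above its control with KO 2 the higher, while in CMM12 the SQLE pair lay below the control and the FDFT1 control lay between its KO libraries.

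CYP51A1, the lanosterol demethylase, had 77.4 and 102 CPM in the CMM12 KO libraries, against 140.2 CPM in the control, and 141 and 201 CPM in the CMM2 KO libraries, against 135 CPM in the control. Both CMM12 KO libraries were below the control, and of the CMM2 pair KO 1 was near it and KO 2 above it. NSDHL and MSMO1, which remove the C4 methyl groups of the sterol ring, had the same shape. NSDHL had 20.4 and 22.2 CPM in the CMM12 KO libraries, against 31.1 CPM in the control, and 22.1 and 56.0 CPM in the CMM2 KO libraries, against 21.5 CPM in the control. MSMO1 had 43.4 and 37.5 CPM in the CMM12 KO libraries, against 65.7 CPM in the control, and 46.0 and 85.4 CPM in the CMM2 KO libraries, against 46.5 CPM in the control. For MSMO1 the log2 fold change in CMM2 was 0.50 ± 0.40 with both KO libraries and -0.02 without KO 2. TM7SF2 and SC5D, a sterol reductase and the lathosterol desaturase, had no fold in either line that exceeded its SE.

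HSD17B7, a 3-ketosteroid reductase of the same C4 step, read differently in the 2 units. By counts it had 17.3 and 19.0 CPM in the CMM12 KO libraries, against 31.7 CPM in the control, and 10.3 and 8.42 CPM in the CMM2 KO libraries, against 9.07 CPM in the control. By the authors' TPM it had 18.0 and 42.5 TPM in the CMM12 KO libraries, against 61.9 TPM in the control, and 10.3 and 19.7 TPM in the CMM2 KO libraries, against 11.1 TPM in the control. The lines did not overlap by counts and did overlap by TPM, in which CMM12 KO 1 was below CMM2 KO 2.

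The intracellular sterol carriers did not share the pattern. STARD4, a soluble sterol transfer protein, had 24.8 and 28.3 CPM in the CMM12 KO libraries, against 21.1 CPM in the control, and 17.2 and 22.1 CPM in the CMM2 KO libraries, against 18.0 CPM in the control. TMEM97, an endoplasmic reticulum and lysosomal membrane protein known as the sigma-2 receptor, had 13.2 and 15.5 CPM in the CMM12 KO libraries, against 14.0 CPM in the control. In CMM2 it had 1 count in KO 1 and 51 counts in KO 2, against 14 counts in the control. TMEM97 was even across CMM12 and uneven across CMM2, where 1 of 3 libraries was below a limit of 3 counts, so no fitted fold is given for that line.

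**Figure D2:**
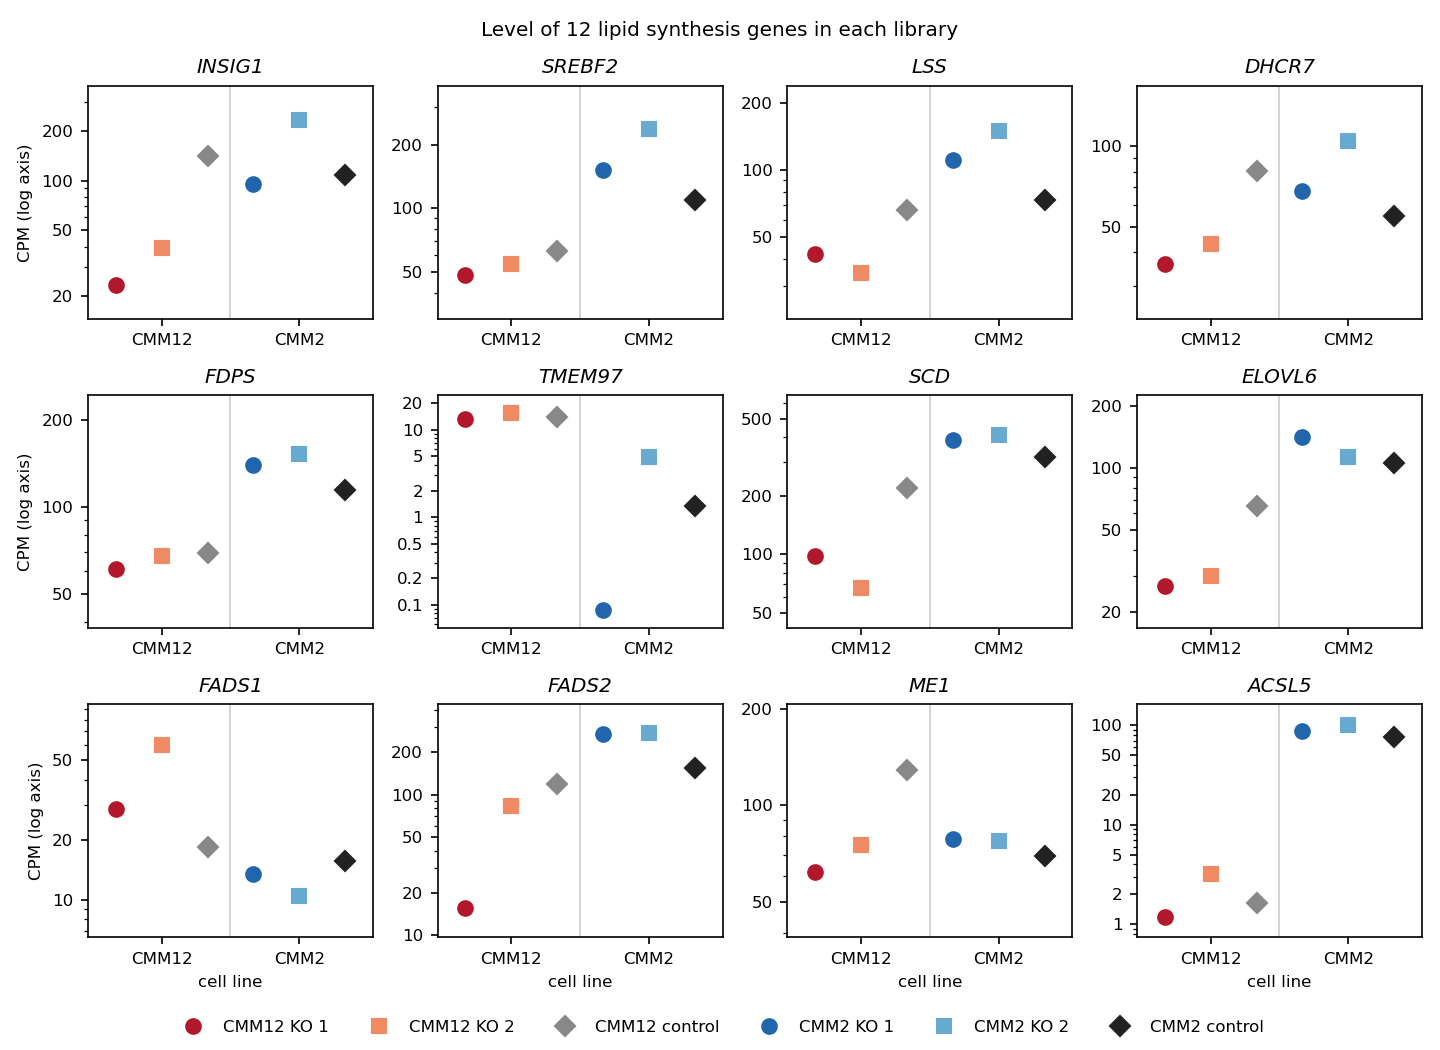
CPM on a log axis of 12 genes (1 panel each) in the 6 libraries, CMM12 left and CMM2 right of the grey line, with KO 1 and KO 2 left of the control in each line; each point is 1 library. INSIG1, LSS, DHCR7, SCD and ELOVL6 are below the control in both CMM12 KO points, FADS1 is above it, and ACSL5 lies between 1.19 and 3.23 CPM in CMM12 and between 76.6 and 101 CPM in CMM2.

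In the fatty acid branch, SREBF1 and all 5 genes of the acetyl-CoA to palmitate steps had a negative fold change in CMM12 and a positive one in CMM2. SREBF1, the factor gene, had 127 and 132 CPM in the CMM12 KO libraries, against 171 CPM in the control, and 224 and 202 CPM in the CMM2 KO libraries, against 162 CPM in the control. Its difference between lines was -0.79 ± 0.33, with an unadjusted p of 0.0493 and an adjusted p of 1 in edgeR. The SREBF1 libraries ordered without overlap within each line, below the control in CMM12 and above it in CMM2.

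ME1, malic enzyme, a source of cytosolic NADPH for lipid synthesis, had 62.0 and 75.1 CPM in the CMM12 KO libraries, against 129 CPM in the control, and 78.4 and 77.2 CPM in the CMM2 KO libraries, against 69.6 CPM in the control. The CMM12 control stood above the other 5 libraries, which lay close together. The log2 fold change was -0.91 ± 0.24 in CMM12, with an unadjusted p of 0.00722 and an adjusted p of 0.702 in edgeR. ACACA, acetyl-CoA carboxylase, had 96.6 and 107 CPM in the CMM12 KO libraries, against 144 CPM in the control, and 154 and 219 CPM in the CMM2 KO libraries, against 156 CPM in the control. FASN, the synthase that builds palmitate, had 381 and 481 CPM in the CMM12 KO libraries, against 604 CPM in the control, and 597 and 657 CPM in the CMM2 KO libraries, against 561 CPM in the control. For both enzymes the CMM12 KO pair lay below every other library. ACSS2, which makes acetyl-CoA from acetate, had 47.0 and 76.2 CPM in the CMM12 KO libraries, against 74.5 CPM in the control, and 106 and 123 CPM in the CMM2 KO libraries, against 84.1 CPM in the control. ACSS2 was low in CMM12 KO 1 alone. ACLY, which makes acetyl-CoA from citrate, had the same sides as FASN, with 343 and 389 CPM in the CMM12 KO libraries, against 469 CPM in the control, and 505 and 658 CPM in the CMM2 KO libraries, against 497 CPM in the control.

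Desaturation and elongation held the largest CMM12 KO fold changes of the fatty acid branch, while in CMM2 the largest was that of LPIN1. SCD, the stearoyl-CoA desaturase that makes oleate, had 97.9 and 66.9 CPM in the CMM12 KO libraries, against 220.4 CPM in the control, and 387 and 413 CPM in the CMM2 KO libraries, against 317 CPM in the control. The KO pairs did not overlap their controls in either line, and every CMM12 library was below every CMM2 library. In CMM12 the log2 fold change was -1.42 ± 0.29, with an adjusted p of 0.598 in edgeR and of 0.00315 in DESeq2. The difference of the KO effects was -1.75 ± 0.42, with an adjusted p of 1 in edgeR and of 0.0396 in DESeq2. ELOVL6, which extends palmitate to stearate, had 26.8 and 29.7 CPM in the CMM12 KO libraries, against 65.1 CPM in the control, and 140.3 and 113 CPM in the CMM2 KO libraries, against 106 CPM in the control. Its log2 fold change in CMM12 was -1.20 ± 0.25, with an unadjusted p of 0.00231 and an adjusted p of 0.598 in edgeR. ELOVL5, which extends polyunsaturated fatty acids, had the same sides, with a difference between lines of -0.83 ± 0.41.

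The 2 front-end desaturases of polyunsaturated fatty acids differed from their controls in opposite ways. FADS1, the delta-5 desaturase, had 28.4 and 59.6 CPM in the CMM12 KO libraries, against 18.3 CPM in the control, and 13.5 and 10.4 CPM in the CMM2 KO libraries, against 15.6 CPM in the control. FADS2, the delta-6 desaturase, had 15.6 and 83.4 CPM in the CMM12 KO libraries, against 119.7 CPM in the control, and 270.3 and 273 CPM in the CMM2 KO libraries, against 154 CPM in the control. FADS1 was thus higher than its control in both CMM12 KO libraries and lower in both CMM2 KO libraries, and FADS2 the other way round in all 4. The CMM12 KO libraries also differed from each other for FADS2, with KO 1 far below KO 2. The log2 fold change in CMM12 was 1.27 ± 0.51 for FADS1, with an unadjusted p of 0.0436 and an adjusted p of 0.825 in edgeR, and -1.27 ± 0.77 for FADS2, with an adjusted p of 0.87. The value for FADS2 was -2.94 without CMM12 KO 2 and -0.52 without CMM12 KO 1, each then resting on 1 KO library.

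The acyl-CoA ligases, which activate fatty acids for use, and LPIN1, a phosphatidate phosphatase of glycerolipid synthesis, showed no common side. ACSL3 had 164 and 154 CPM in the CMM12 KO libraries, against 231 CPM in the control, and 238 and 249 CPM in the CMM2 KO libraries, against 222 CPM in the control. It was below the control in both CMM12 KO libraries and slightly above it in both of CMM2. ACSL1 had 58.3 and 80.8 CPM in the CMM12 KO libraries, against 96.5 CPM in the control, and 103 and 76.8 CPM in the CMM2 KO libraries, against 105 CPM in the control. ACSL1 was thus lower than the control in all 4 KO libraries, by little in CMM2 KO 1. LPIN1 had 12.2 and 6.46 CPM in the CMM12 KO libraries, against 8.97 CPM in the control, and 6.64 and 12.2 CPM in the CMM2 KO libraries, against 4.58 CPM in the control. The CMM12 control of LPIN1 lay between its KO libraries. ACSL4, which prefers arachidonate, was higher in KO 2 than in KO 1 and control of both lines.

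**Figure D3:**
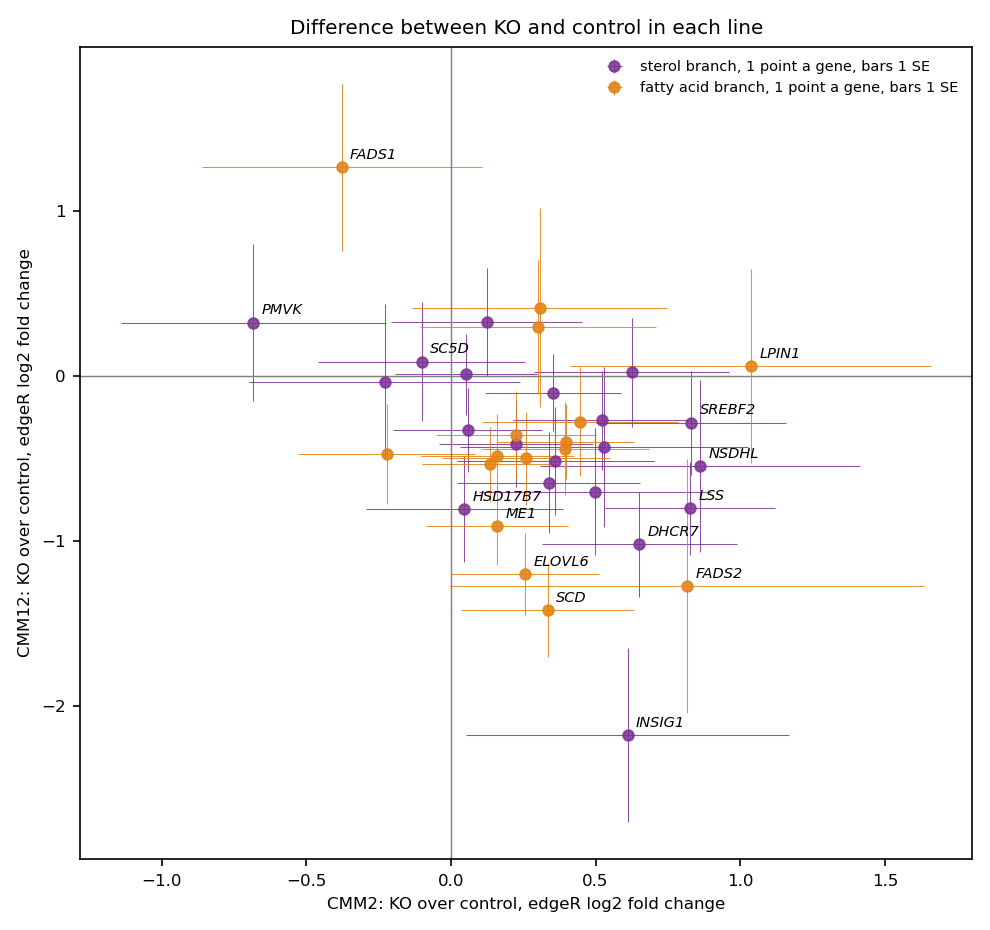
EdgeR log2 fold change of KO over control in CMM12 (vertical axis) against that in CMM2 (horizontal axis), 1 point a gene, TMEM97 left out, with bars of 1 SE, purple for the sterol and orange for the fatty acid branch. Most points lie in the lower right, with a positive value in CMM2 and a negative one in CMM12; INSIG1 is lowest at -2.18 in CMM12, and FADS1, PMVK and, close to 0 in both lines, SC5D lie in the upper left.

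Summed over genes as TPM, the sterol branch stood at 651 and 823 TPM in the CMM12 KO libraries, against 1041 TPM in the CMM12 control, and at 879 and 1283 TPM in the CMM2 KO libraries, against 788 TPM in the CMM2 control. The fatty acid branch stood at 608 and 820 TPM in the CMM12 KO libraries, against 1080.3 TPM in the CMM12 control, and at 1276 and 1436 TPM in the CMM2 KO libraries, against 1067 TPM in the CMM2 control. As a share of the own control, the fatty acid sum was 56.3% and 75.9% in the CMM12 KO libraries and 120% and 135% in the CMM2 KO libraries. The SREBP regulators had the lowest shares in CMM12, at 36.2% and 51.7%, followed by desaturation and elongation at 42.6% and 62.9%. The low share of the regulators came mainly from INSIG1, with 12.8 and 23.2 TPM in the CMM12 KO libraries, against 83.4 TPM in the control. SREBF2 had 15.8 and 19.7 TPM, against 22.3 TPM, and SCAP 16.8 and 21.95 TPM, against 19.8 TPM. In CMM2 desaturation and elongation stood at 134% and 143% of the control, and the squalene to cholesterol steps at 114% in KO 1 and 179% in KO 2. The sterol carriers alone had a share above 100% in a CMM12 KO library, 124% in KO 2. These sums were not tested.

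**Figure D4:**
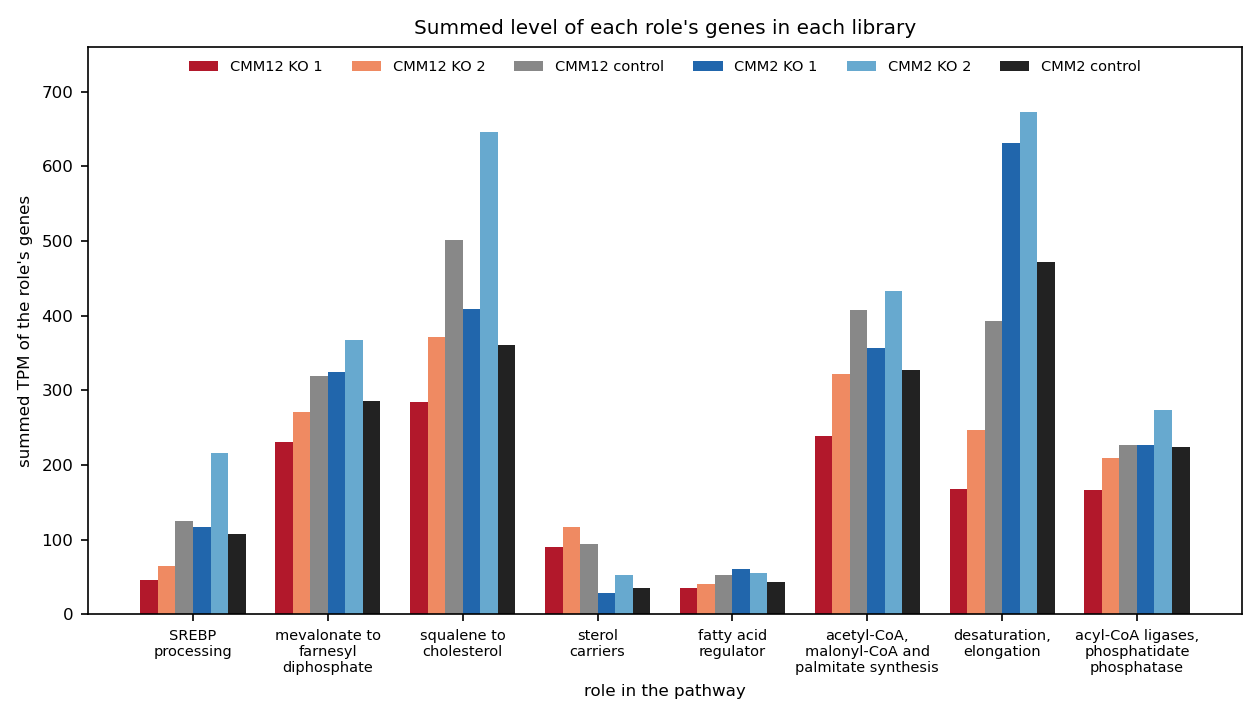
Summed TPM of the genes of each role (groups of bars) in the 6 libraries, each bar 1 library, with CMM12 KO 1, KO 2 and control left of CMM2 KO 1, KO 2 and control. In 7 of 8 roles both CMM12 KO bars are below the CMM12 control and both CMM2 KO bars above the CMM2 control by sum. For the acyl-CoA ligases and LPIN1 this is slight in CMM2 KO 1, at 227 TPM, against 224 TPM in the control. Desaturation and elongation are the widest apart, at 168 and 247 TPM in the CMM12 KO libraries and 632 and 673 TPM in the CMM2 KO libraries.

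Between the lines, with KO and control libraries in a single model with a term for KO, edgeR called 10 of the 37 genes. In CMM12 relative to CMM2, 9 were lower, 5 of 21 in the sterol branch and 4 of 16 in the fatty acid branch, while 11.2% of all genes were called lower. HSD17B7 alone was higher, while 14.6% of all genes were called higher. The count of 10 was 3 without CMM12 KO 2, 5 without CMM12 KO 1 and 6 without CMM2 KO 1, and FDPS and ACSL5 were called under all 18 alternative settings. SREBF2 and ELOVL6 were called under 17 of the 18, SCD under 14, MVK and HSD17B7 under 12, ELOVL5 under 11, LSS under 10 and FDFT1 under 8. The FDFT1 call was lost when any 1 library was left out, in the 4 KO libraries alone and in limma, with a highest adjusted p of 0.172, and the LSS call was lost without any 1 of the 4 KO libraries, in limma and with the replicate block. DESeq2 called 11 lower (background 14.5%) and 3 higher (background 17.7%). Every CMM12 library was below every CMM2 library for 14 of the 37 genes, where 21.5% of all tested genes were, and above for 3, where 24.6% were. The sterol genes called lower were SREBF2 at -1.54 ± 0.28 (adjusted p of 0.009) and FDPS at -1.03 ± 0.16 (adjusted p of 0.00563). LSS at -1.24 ± 0.34 (adjusted p of 0.036) and MVK at -0.83 ± 0.20 (adjusted p of 0.022) were also lower. FDFT1 was at -0.76 ± 0.23 (adjusted p of 0.0468). Among fatty acid genes SCD was lower by 1.70 ± 0.37 (adjusted p of 0.016) and ELOVL6 by 1.68 ± 0.31 (adjusted p of 0.00918). ELOVL5 was lower by 0.87 ± 0.23 (adjusted p of 0.031). These values are edgeR log2 fold changes from KO and control libraries together. The ratios of the controls alone are given further below.

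ACSL5, an acyl-CoA ligase known from intestine and liver, had the largest line difference of the set. It had 1.19 and 3.23 CPM in the CMM12 KO libraries and 1.64 CPM in the CMM12 control, against 88.4 and 101 CPM in the CMM2 KO libraries and 76.6 CPM in the CMM2 control. The lines did not overlap in KO or in control, and the log2 fold change was -5.46 ± 0.35, with an adjusted p of 0.00032 in edgeR. HSD17B7 was higher in CMM12 by a log2 fold change of 1.24 ± 0.26, with an adjusted p of 0.0136 in edgeR on counts and of 0.0562 in limma on TPM. TMEM97 and FADS1 were higher in every CMM12 library, FADS1 with a log2 fold change of 1.34 ± 0.43, but had edgeR adjusted p of 0.0539 and 0.0554.

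Over the set as a whole the lines lay further apart in the KO libraries than in the controls. This follows from the KO effects given above and is not a separate result. The genes were chosen with that direction known. The log2 ratio of the 2 controls, CMM12 over CMM2, had a median of 0.05 over the sterol branch and -0.10 over the fatty acid branch, with 18 of the 37 genes above 0 and 19 below. The log2 ratio of the KO means had a median of -0.70 over the sterol branch and -0.69 over the fatty acid branch, with 9 genes above 0 and 28 below. Over all tested genes with counts the medians were 0.00 for the controls and 0.02 for the KO means. INSIG1 had a ratio of 0.40 between controls and -2.39 between KO means, and DHCR7 had 0.55 and -1.12. Of the genes called lower in CMM12, LSS had -0.15 between controls and -1.78 between KO means, and SCD -0.52 and -2.28. ELOVL5 had -0.31 and -1.15, FDFT1 -0.36 and -0.96, and MVK -0.40 and -1.04. SREBF2 had -0.80 and -1.91, ELOVL6 -0.70 and -2.16, and FDPS -0.73 and -1.18. HSD17B7, called higher, had 1.81 and 0.96, further apart in the controls. ACSL5 differed between the lines in both, with -5.55 between controls and -5.42 between KO means. With 1 control a line the ratio of controls has no replicate check.

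**Figure D5:**
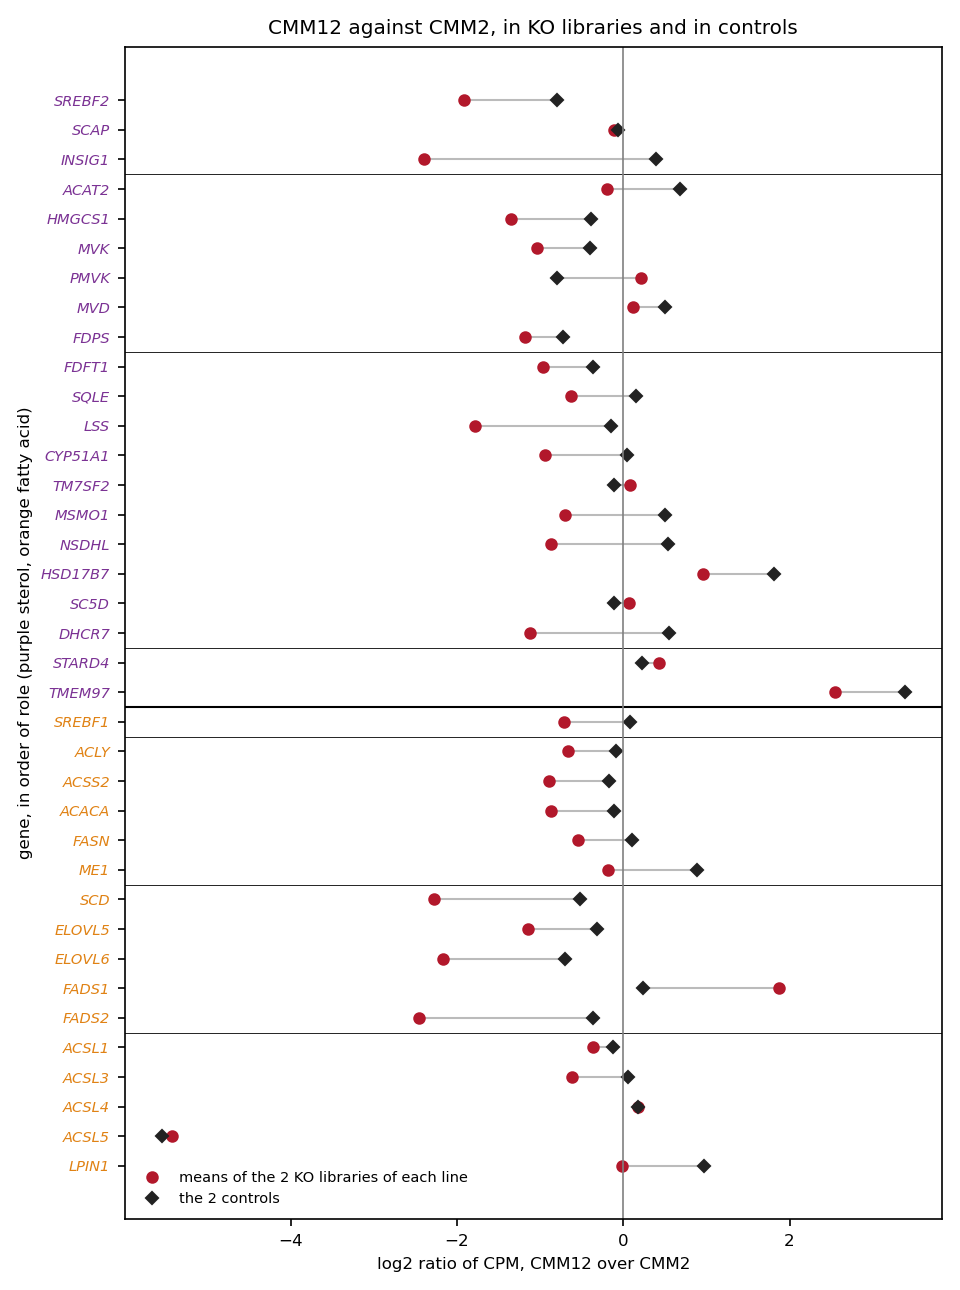
Log2 ratio of CPM, CMM12 over CMM2, for each of the 37 genes (rows, in order of role), from the means of the 2 KO libraries of each line (red circles) and from the 2 controls (black diamonds), joined by a line. The diamonds lie around 0 (18 above, 19 below) and most circles left of them (28 below 0), with FADS1 and PMVK furthest to the right of theirs and ACSL5 far left in both.

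Outside the 39 genes, 48 genes of neighbouring pathways were listed and 43 of them tested. EdgeR called 0 of the 43 for KO against control in either line, across lines or for the difference. At an unadjusted p under 0.05 it passed 5 of the 43 in CMM12 (background 5.99%), 1 in CMM2 (background 1.9%), 2 across lines (background 4.03%) and 3 for the difference (background 3.84%). In CMM2 and across lines these counts were near the background, and DESeq2 and limma called 0 in each. The pattern of CMM2 above and CMM12 below was seen for 6 of the 43 and its reverse for 4, beside 10.2% and 11% of all tested genes. Of 8 genes of SREBP control, 2 had the pattern and SOAT1 its reverse (named after its values were seen). MBTPS2, the site-2 protease that releases SREBP, had 27.3 and 24.7 CPM in the CMM12 KO libraries, against 41.5 CPM in the control, and 33.0 and 56.9 CPM in the CMM2 KO libraries, against 29.6 CPM in the control. INSIG2 had 10.6 and 14.5 CPM in the CMM12 KO libraries, against 15.3 CPM in the control, and 9.08 and 9.84 CPM in the CMM2 KO libraries, against 5.82 CPM in the control. Both had KO pairs on opposite sides, with edgeR differences of -1.28 ± 0.54 and -0.98 ± 0.57 and unadjusted p of 0.0527 and 0.129.

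In sterol uptake and efflux, 2 of the 6 tested genes had the pattern. SCARB1, the HDL receptor, had 32.8 and 51.8 CPM in the CMM12 KO libraries, against 66.6 CPM in the control, and 123 and 118 CPM in the CMM2 KO libraries, against 87.1 CPM in the control. ABCA1, the cholesterol exporter, is a target of the liver X receptors rather than of SREBP. It had 199 and 182 CPM in the CMM12 KO libraries, against 273 CPM in the control, and 58.4 and 310.2 CPM in the CMM2 KO libraries, against 39.3 CPM in the control. ABCA1 was high in CMM2 KO 2 alone of its line, and its difference of -2.75 ± 1.18 had an unadjusted p of 0.0551.

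Among other genes of fatty acid synthesis and elongation, 1 of 9 tested had the pattern, SCD5, a second stearoyl-CoA desaturase. SCD5 had 9.85 and 11.6 CPM in the CMM12 KO libraries, against 22.6 CPM in the control, and 54.9 and 44.5 CPM in the CMM2 KO libraries, against 36.7 CPM in the control. ELOVL1, the elongase of very long saturated chains, had the reverse pattern, with 77.5 and 67.3 CPM in the CMM12 KO libraries, against 41.7 CPM in the control, and 68.0 and 60.8 CPM in the CMM2 KO libraries, against 75.1 CPM in the control. Their differences were -1.51 ± 0.44 and 1.02 ± 0.35, with unadjusted p of 0.012 and 0.0252. Of 6 genes of fatty acid oxidation none had the pattern or its reverse. CPT1A, the gate enzyme of mitochondrial import, had 189 and 236 CPM in the CMM12 KO libraries, against 164 CPM in the control, and 211 and 165 CPM in the CMM2 KO libraries, against 208 CPM in the control. No glycerolipid gene of 6 had it either: AGPAT2 had a difference of 1.80 ± 0.76 and LPIN3 one of -0.78 ± 0.56. Of 5 other sterol and isoprenoid enzymes 1 had the pattern (ERG28, named after its values were seen) and 1 its reverse (LBR, a sterol reductase of the nuclear envelope, with a difference of 0.72 ± 0.47), and ACAT1 had a difference of 0.55 ± 0.43. Of 3 genes of cytosolic NADPH supply 0 had the pattern and 1 its reverse, PGD, with a difference of 0.51 ± 0.41.

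Between the lines edgeR called 13 of these 43 neighbouring genes, 8 lower in CMM12, where 11.2% of all genes were called lower, and 5 higher, where 14.6% were, so the count of higher calls was near the background. Lower in CMM12 were LIPA, lysosomal acid lipase, at -1.73 ± 0.27, SCD5 at -1.71 ± 0.34, ACACB, the mitochondrial acetyl-CoA carboxylase, at -1.70 ± 0.40, SCARB1 at -1.14 ± 0.28 and SLC25A1, the citrate carrier, at -0.81 ± 0.18. SOAT1, which esterifies cholesterol, at -0.74 ± 0.17, ELOVL4 at -0.72 ± 0.20 and ACADM, of fatty acid oxidation, at -0.70 ± 0.18 were also lower. Higher in CMM12 were HACD2, of the elongation cycle, at 1.20 ± 0.22 and 4 of the 6 glycerolipid genes. These were DGAT1 at 1.03 ± 0.22, GPAM at 0.61 ± 0.17, LPIN2 at 0.59 ± 0.16 and DGAT2, which had 2.64 and 5.97 CPM in the CMM12 KO libraries and 1.9 CPM in the CMM12 control, against no count in any of the 3 CMM2 libraries, where 3 counts would be 0.262 to 0.286 CPM. The other 2 glycerolipid genes, AGPAT2 at 0.27 ± 0.46 and LPIN3 at -0.28 ± 0.28, were not called.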

How the data were processed

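RNA of 6 canine cell line libraries was sequenced, 2 podoplanin KO and 1 control for each of CMM12 and CMM2. Reads were handled with STAR 2.7.3a and RSEM 1.3.3 against CanFam3.1, per the submitters' processing notes. The authors deposited RSEM's expected counts per gene and, in a second table, TPM per gene, per the file headers; kit strand and trimming are not given in the sources used here.

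These estimates need not be whole; rounding them to integers altered 3.22 to 3.63% of values. Libraries held 9732925 to 11807824 counts. Rows without a gene symbol, 7.89 to 8.85% of counts, are gene rows and stayed in. Low rows were removed with filterByExpr, libraries were scaled by TMM, and CPM in the text uses these scaled sizes. Tests were edgeR 4.0.16 (R 4.3.3) glmQLFit and glmQLFTest on a model of 4 groups (2 residual degrees of freedom) for KO against control and their difference, and on a model of line plus KO (3 residual degrees of freedom) for CMM12 against CMM2 and for KO across lines, with Benjamini-Hochberg adjustment over 12270 genes. DESeq2 1.42.0 and limma 3.58.1 with trend on log2(TPM + 1), for rows with at least 1 TPM in 1 library, were alternatives, beside other filters, scalings and each library left out. Each SE is the size of the edgeR log2 fold change divided by the square root of the F statistic of its test. DESeq2 gave no adjusted p for 1190 genes in CMM12. The edgeR step was also run on simulated counts with the same spread setting for all genes. That run does not show how the test performs at the spread of these libraries. All library pairs differed by more than sampling noise.

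The 39 genes and the neighbouring and marker lists were chosen with earlier results of these data known, and not every enzyme of the pathways is reported here. Genes shown by library were, in each role, up to 3 with the smallest unadjusted p for the difference between lines and up to 2 for CMM12 against CMM2, and every gene called in a comparison; of each neighbouring list, up to 2 by the first rule and every called gene. Some other genes, MVD among them, were shown outside these rules. Genes that share reads with close copies may be split uncertainly by RSEM.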

Additional observations from a re-analysis of the deposited data

Results flagged for a closer look

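For SCD the KO effect differed between the lines in 1 of the tests. The difference of the KO effects, CMM12 minus CMM2, was -1.75 on the log2 scale with an adjusted p of 0.0396 in DESeq2, and an adjusted p of 1 in edgeR, with both CMM12 KO libraries below their control and both CMM2 KO libraries above theirs.

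The median ratio of each branch was below 0 in both CMM12 KO libraries and above 0 in both CMM2 KO libraries. The median difference of the KO effects was -0.82 for the sterol branch and -0.74 for the fatty acid branch. The difference of these medians between the lines was not tested, and the genes were chosen with this direction known.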

How the results depend on the processing

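EdgeR called 0 of the 37 genes in the 4 KO comparisons under every other filter, scaling and spread estimate. DESeq2 called 2 in CMM12 and 1 for the difference, and leaving out 1 library gave 0 to 1 in CMM12. Over all genes DESeq2 called 6 in CMM2, 45 in CMM12, 22 for the difference and 9 across lines. Without a filter the calls were 1 in CMM2, 26 in CMM12, 2 for the difference and 15 across lines. In CMM12 the main count of 1 was 0 at 1 CPM in 2 libraries, 4 with the bias-adjusted fit, 0 with limma on log2(TPM + 1) or log2(TPM + 0.1) and 75 with limma and no filter. Across lines limma called 3 at a pseudocount of 1 and 2 at 0.1. Leaving out 1 library gave 0 to 1 calls in CMM2, 0 to 14 in CMM12, 0 to 1 for the difference and 0 to 1 across lines. For CMM12 against CMM2 it gave 1499 to 3096 of the main 3170 calls over all genes, and 3 to 11 of 37 among the lipid genes. There the 4 KO libraries alone gave 1704 over all genes, and no filter gave 17 and limma with no filter 4 lipid genes.

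The sterol median in CMM12 was -0.38 by limma at every TPM setting and in KO 1 alone, and -0.38 to -0.33 when a library was left out. For the lines, the sterol median was 0.0506 and the fatty acid median -0.10 between controls alone; the fatty acid median was -0.69 in the 4 KO libraries alone and -0.69 to -0.36 when a library was left out. Fold changes past 1 SE kept their sign in CMM12 (22 genes) and for the difference (29) under the settings run for single genes. Between lines (27) they did so too, but in the controls alone 7 turned, INSIG1 being 0.40 against -1.51 in all libraries. In CMM2 (19) the exceptions were without KO 2, where INSIG1 was -0.18 (to 1.12 without KO 1), HMGCS1 -0.20 (to 1.01) and MSMO1 -0.0175 (to 0.88). Scaling, added after the data were seen, left 24 to 25 genes below the control in both CMM12 KO libraries and 22 to 25 above it in both CMM2 KO libraries. The main models did not pair the lines by KO number. The correlation of KO 1 minus KO 2 between the lines was 0.0606 over all tested genes. This value cannot tell whether KO lines of the same number share a guide, which the labels do not name. With the replicate block the line comparison called 10 lipid genes and 2959 in all, LSS no longer among them. With 1 control a line, neither the KO comparison within a line nor the difference could be had without that line's control. The comparison across lines was run without a control too, and its KO effect then came from the other line alone.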
